A study of Mus musculus with 25 samples.

Results

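The genes described here are the complement components C1qa, C1qb, C1qc, C2, C3, C4b and Cfb and the anaphylatoxin receptors C3ar1 and C5ar1. They were taken by symbol, 9 of the 54752 gene rows of the count files, and compared over 2 white fat depots of the mouse by RNA sequencing. Epididymal white adipose tissue (eWAT) lies in the abdomen and inguinal white adipose tissue (iWAT) under the skin. All animals were male C57BL/6N mice, and the knockout (KO) was C57BL/6N-Acod1em1(IMPC)J/J, a whole-body deletion of Acod1 (Acod1-/-), the gene of the enzyme that makes itaconate. Mice were caged singly. Wild-type (WT) littermates on normal diet (ND) gave 4 eWAT and 3 iWAT libraries. WT mice on high-fat diet (HFD, 60% of calories from fat) gave 5 libraries of each depot, and KO mice on HFD gave 5 of eWAT and 3 of iWAT. Diets began at 5 weeks of age and ran for 16 weeks, except that the labels give 17 and 18 weeks for iWAT KO libraries 2 and 3. KO mice on ND are not analysed here, so a genotype difference here is a difference on HFD only. The labels do not say whether the 2 depots came from the same mice.

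Complement is a cascade of plasma proteins that marks particles and dying cells for uptake. C1q, built from the products of C1qa, C1qb and C1qc, recognizes the target and starts the classical pathway. C4 and C2 then form one enzyme that cleaves C3, and factor B (Cfb), once cut by factor D, forms another. Fragments of C3 and C5 signal through C3ar1 and C5ar1 on myeloid cells. Most plasma complement comes from the liver, but tissue macrophages make C1q, and fibroblasts and adipocytes can make C3, C4, C2 and factor B. C1qa, C1qb, C1qc, C3ar1 and C5ar1 are therefore grouped below as macrophage-made, and C2, C3, C4b and Cfb as stroma-made. In whole tissue neither grouping can be read from the counts, and fewer cells of a type cannot be told apart from less RNA per cell.

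The C1q genes are neighbours on chromosome 4 of GRCm38 (GENCODE vM21). C1qb lies at chr4:136880129-136886187, C1qc at chr4:136889804-136893065 and C1qa at chr4:136895917-136898803, all on the minus strand and within 18675 bases. C4b (chr17:34728380-34743882), Cfb (chr17:34856374-34862518) and C2 (chr17:34862604-34898265) share a segment of 169886 bases on chromosome 17, while C3 lies elsewhere on it at chr17:57203970-57228136. C3ar1 is at chr6:122847138-122856161 and C5ar1 at chr7:16246743-16259540. These genes too are on the minus strand.

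Promoter sequences (250 bases before to 50 after the start site, RefSeq, GRCm38.p6) were matched for 5 of the 9 genes, and not for C1qa, C2, C4b and Cfb. Those of C1qb and C1qc are shown because these neighbours moved together in every group, and that of C3 because C3 moved in opposite directions in the 2 depots. Each is written 5′ to 3′ on the gene's own strand. Capitals mark GAGGAA or its complement in C1qb (chr4:136886151-136886450) and C1qc (chr4:136892865-136893164), and GGGA followed after 4 free bases by CC, on either strand, in C3 (chr17:57228087-57228386).
C1qb: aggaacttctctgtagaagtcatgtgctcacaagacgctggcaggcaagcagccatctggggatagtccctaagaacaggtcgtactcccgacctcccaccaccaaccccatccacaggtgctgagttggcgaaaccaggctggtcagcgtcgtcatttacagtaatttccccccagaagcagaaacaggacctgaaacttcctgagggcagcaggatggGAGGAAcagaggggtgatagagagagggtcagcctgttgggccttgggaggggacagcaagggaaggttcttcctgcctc
C1qc: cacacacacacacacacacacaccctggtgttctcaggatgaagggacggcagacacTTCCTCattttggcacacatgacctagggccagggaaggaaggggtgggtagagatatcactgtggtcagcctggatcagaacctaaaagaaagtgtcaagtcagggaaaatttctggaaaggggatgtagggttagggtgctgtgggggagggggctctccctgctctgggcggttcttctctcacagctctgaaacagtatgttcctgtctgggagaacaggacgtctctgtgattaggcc
C3: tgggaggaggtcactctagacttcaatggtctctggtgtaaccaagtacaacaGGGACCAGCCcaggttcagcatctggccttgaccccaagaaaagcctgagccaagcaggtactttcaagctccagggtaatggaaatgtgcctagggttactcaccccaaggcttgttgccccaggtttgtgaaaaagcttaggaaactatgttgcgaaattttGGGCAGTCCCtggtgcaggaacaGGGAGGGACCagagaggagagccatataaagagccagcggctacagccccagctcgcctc
GAGGAA is the core bound by PU.1, the factor that sets macrophage identity, and the spaced GGGA and CC are a loose form of the NF-kB site. GAGGAA or its complement occurred once in each of the C1q promoters, and it occurs in 28.3% of all 32851 promoters in the table. The NF-kB form occurred at 3 places in C3, at 1 in C1qc and at 2 overlapping places in C1qb, against 20.7% of all promoters with at least 1. TTCNNNGAA (in 8.3% of promoters) and GAAA repeated after 2 free bases (in 3.44%) were found in none of the 5, and C3ar1 and C5ar1 held none of the 4 motifs. Both strands were searched, and the matches are descriptions of letters, not binding sites.

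Depth was 31.41 to 52.34 M counted reads per library, and all 9 genes passed the low-count filter (a mean of 1 CPM or more, CPM being a gene's reads per M counted reads of its library) in both depots. The libraries carry 2 ranges of library numbers in their file headers, of 14 and 11 libraries, and all ND libraries fall in the second together with 1 library of each HFD group. Diet and number range therefore nearly coincide, and the values of those HFD libraries are given where they bear on a result. Acod1 itself gave 0 to 9 reads in every library, WT included, so the genotype labels could not be checked from it. Macrophage, fibroblast and adipocyte markers were present in every group, as fat should have. Markers of other tissues were also found in some libraries. The summed epididymis markers reached 7890 CPM in eWAT ND library 2 and 1086 CPM in eWAT KO library 5. The summed B cell and lymph node markers were 599 to 925 CPM in iWAT ND and at most 45.2 CPM in iWAT HFD. The summed hepatocyte markers were 10.54 to 37.9 CPM in all ND libraries and 27.1 to 965 CPM in all HFD libraries. These 3 sums moved with some of the complement results below, and their part in those results was not tested except where a value is given.

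On HFD, C1qb and C1qa had the highest mean levels of the 9 genes in WT eWAT per unit length. In FPKM as deposited (reads scaled to gene length and library depth), mean levels there were 460 ± 235 for C1qb, 408 ± 200 for C1qa, 210 ± 55.0 for C3, 198 ± 108 for C1qc and 192 ± 41.02 for C4b (SD, n = 5). The ranges of neighbours in this order overlapped. Below them C5ar1 stood at 44.6 ± 30.3 and C3ar1 at 43.05 ± 28.7, then C2 at 3.53 ± 0.865 and Cfb at 1.02 ± 0.306. On ND the order began with C4b instead, at 203 ± 60.2 FPKM in eWAT (n = 4) and 149 ± 39.5 in iWAT (n = 3). C3 followed in both, at 89.7 ± 11.8 and 131 ± 26.8 FPKM. In eWAT KO on HFD the first ranks were close, C1qa at 113 ± 33.7, C4b at 109 ± 63.1, C1qb at 98.8 ± 52.7 and C3 at 93.4 ± 66.1 FPKM (n = 5). In iWAT C4b stayed first on HFD, at 155 ± 37.3 in WT (n = 5) and 95.7 ± 16.6 in KO (n = 3), followed by C1qa at 130 ± 48.1 and 69.1 ± 25.1.

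**Figure D1:**
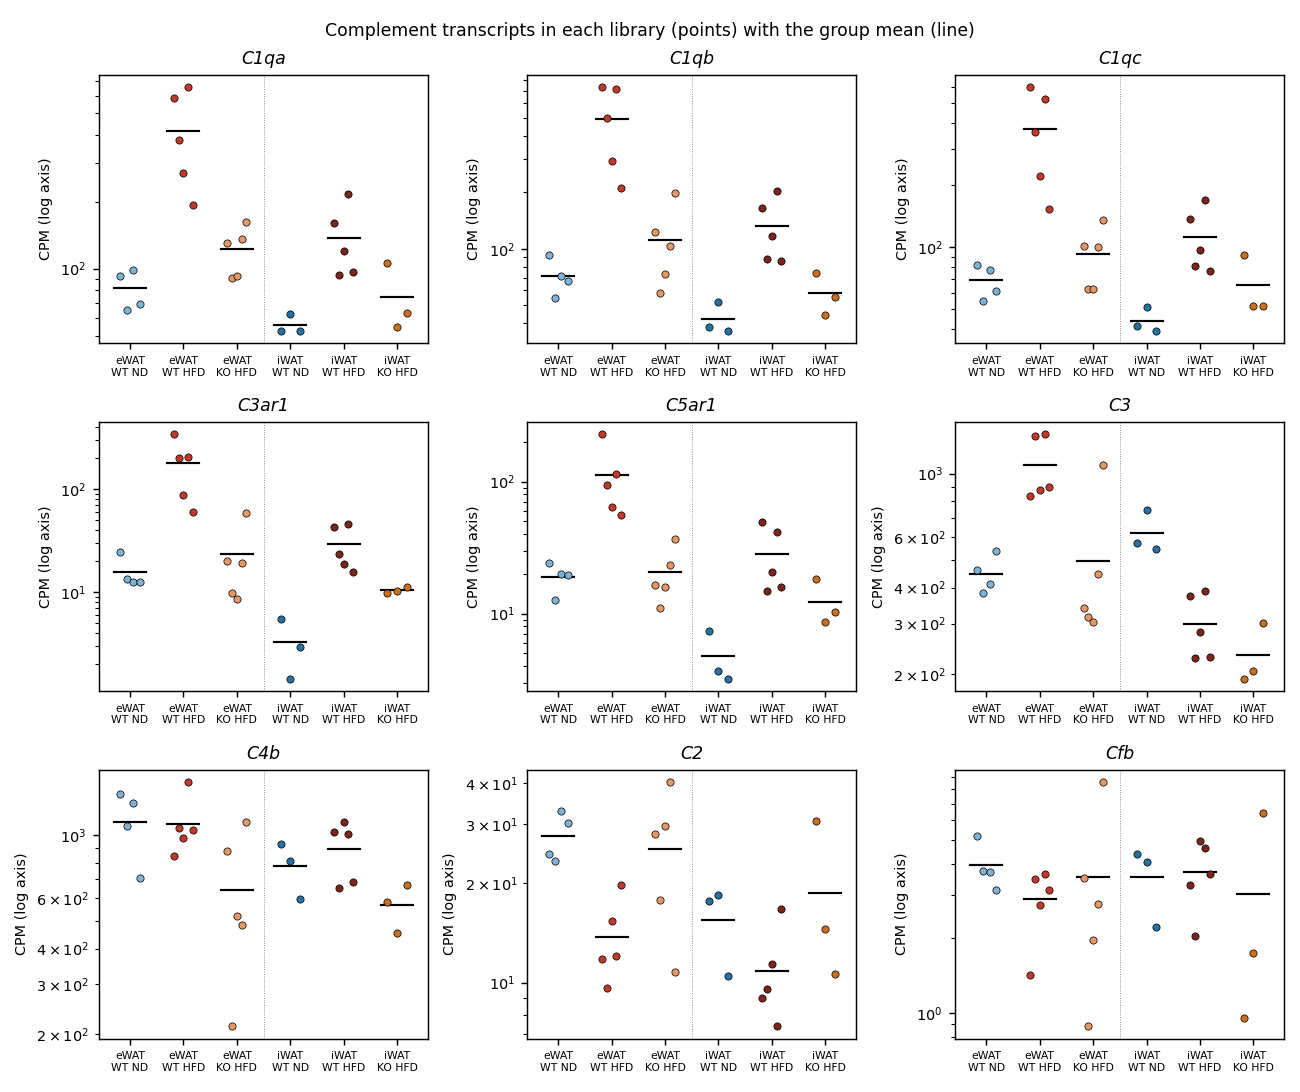
CPM on a log axis (scale set over all 25 libraries) for each of the 9 genes, 1 panel a gene and 1 point a library, with the 6 groups on the x axis and lines at the group means. In C1qa, C1qb, C1qc, C3ar1 and C5ar1 every eWAT WT HFD library lies above every eWAT ND library. In WT, C3 is higher on HFD in eWAT and lower on HFD in iWAT.

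The first comparison asks what HFD did to WT fat. In eWAT, 6 of the 9 genes rose and 1 fell at an adjusted p under 0.1, where 24.8% of all genes tested rose and 26.9% fell. The genes that rose were the 3 C1q genes, both receptors and C3, and C2 fell. The median log2 fold change was 2.35 over the 9 genes and -0.04 over all genes. In iWAT, 5 rose and 1 fell, with 25.9% of all genes higher and 24.2% lower. There the macrophage-made genes again rose, and C3 fell. The median over the 9 genes was 1.33, beside 0.0043 over all genes. The second comparison asks what loss of Acod1 did on HFD. In eWAT, 6 of the 9 fell and 1 rose (10.8% of all genes fell and 9.13% rose), and the genes that fell were the ones that had risen with diet. With the 2 libraries of most epididymis markers left out, 7 of the 9 were called for diet and 8 for genotype in eWAT. The shares of all genes called in that fit were not counted. The diet and genotype comparisons of a depot share the WT HFD libraries. In iWAT none passed by edgeR (0% of all genes, 0 of 14801), while 6 of the 9 had an unadjusted p under 0.05 and 6 passed by DESeq2. Of all genes there, 2468 had such a p and 1072 passed by DESeq2.

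**Figure D2:**
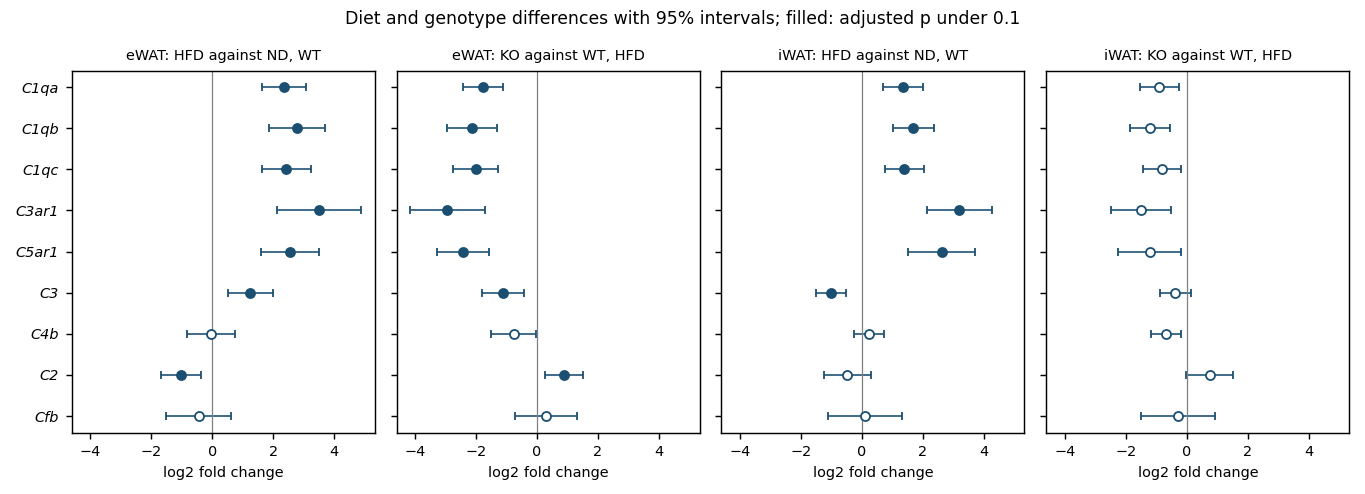
Log2 fold changes (x axis) of the 9 genes (y axis) for diet and genotype in each depot, with 95% intervals and filled points at an adjusted p under 0.1 by edgeR. C3 lies at 1.26 for diet in eWAT and at -1.02 in iWAT, on opposite sides of zero, and all iWAT genotype points are open.

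The eWAT genotype difference was also read within each number range. In the first range, with 4 WT and 4 KO libraries on HFD, 8 of the 9 genes passed, 7 lower in KO and C2 higher. The share of all genes that passed in this fit was not counted, so the 8 cannot be set against it. The second range holds 1 WT and 1 KO library of eWAT on HFD, library 5 of each, so no test is possible there. In that pair C1qa was at 194 CPM in WT and 162 CPM in KO, C1qb at 211 and 198 CPM, C1qc at 153 and 136 CPM, C3ar1 at 60.6 and 58.8 CPM and C5ar1 at 56.0 and 36.97 CPM. These 5 genes were lower in KO in this pair too, but by far less than in the fit of all eWAT libraries. The fitted differences were 3.41-fold for C1qa, 4.42-fold for C1qb, 4.02-fold for C1qc, 7.66-fold for C3ar1 and 5.38-fold for C5ar1. In the pair C1qb and C3ar1 were nearly level, so it does not repeat the fitted difference. C2 was at 19.7 CPM in WT and 10.8 CPM in KO, C3 at 901 and 1073 CPM, and C4b at 1041 and 1109 CPM. For these 3 genes the pair ran opposite to the fitted difference. Cfb was at 3.15 CPM in WT and 8.57 CPM in KO, the same direction as its fitted difference, which did not pass.

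C1q is the recognition unit, and its chains were followed first. C1qa, the A chain, was at 92.3, 65.3, 99.1 and 69.6 CPM in the 4 eWAT ND libraries and at 584, 378, 269, 659 and 194 CPM in the 5 eWAT WT HFD libraries. In eWAT KO HFD it was at 131, 90.5, 93.1, 136 and 162 CPM. Every WT HFD library was above every other eWAT library, and the lowest of them was also the one from the number range of the ND libraries. C1qa rose 5.11-fold with HFD in eWAT (log2 fold change 2.35, SE 0.34, adjusted p = 0.000404 by edgeR) and was 3.41-fold lower in KO than in WT on HFD (log2 fold change -1.77, SE 0.30, adjusted p = 0.011).

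C1qb, the B chain, moved further. Its eWAT values were 54.8 to 92.9 CPM on ND, 733, 498, 294, 717 and 211 CPM in WT on HFD, and 123, 58.3, 73.3, 103 and 198 CPM in KO on HFD. The highest KO library, number 5, came close to the lowest WT library but stayed below it. The log2 fold change was 2.78 (SE 0.43, adjusted p = 0.000568) with diet and -2.14 (SE 0.38, adjusted p = 0.011) with genotype. C1qc, the C chain, changed by 2.43 (SE 0.38, adjusted p = 0.000605) and -2.01 (SE 0.34, adjusted p = 0.011), again with no overlap of WT HFD with either other group. The share of all genes whose groups were apart in the same directions was 17.2% for diet and 4.34% for genotype.

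The proportions of the chains shifted with diet. Per unit length C1qa made up a mean of 38.7% to 46.7% of the C1q sum over the 6 groups, C1qb 33.5% to 43.03% and C1qc 18.0% to 21.2%. The C1qb share was 32.6% to 39.4% in eWAT ND and 41.9% to 45.4% in eWAT WT HFD, and 32.1% to 35.4% in iWAT ND and 37.3% to 40.1% in iWAT WT HFD, with no overlap in either depot. In KO on HFD it was 31.0% to 44.6% in eWAT and 31.3% to 36.7% in iWAT. With group means removed, the correlation over the 25 libraries was 0.94 between C1qa and C1qb, 0.98 between C1qa and C1qc and 0.96 between C1qb and C1qc. These are descriptions over libraries that share depth and tissue makeup.

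In iWAT the same genes rose from a lower level. C1qa was at 52.3, 62.5 and 52.3 CPM on ND, at 160, 93.4, 120, 216 and 96.9 CPM in WT on HFD, and at 106, 54.8 and 63.5 CPM in KO on HFD. All WT HFD libraries lay above all ND libraries, as for 23% of all genes, and KO library 1 lay among the WT HFD libraries. The diet effect was 1.33 for C1qa (SE 0.30, adjusted p = 0.00503), 1.68 for C1qb (SE 0.31, adjusted p = 0.00162) and 1.38 for C1qc (SE 0.29, adjusted p = 0.00349). In iWAT the genotype differences did not pass. C1qb was at 74.1, 44.3 and 55.4 CPM in KO and at 86.1 to 204 CPM in WT on HFD, apart in all libraries, with a log2 fold change of -1.21 (95% interval -1.87 to -0.55, adjusted p = 0.139). Of all genes 4.59% were apart in this direction. C1qa had -0.90 (adjusted p = 0.175) and C1qc -0.81 (adjusted p = 0.199).

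The C1q level was also set against macrophage content. Over 12 macrophage markers (Adgre1, Cd68, Csf1r, Lyz2, Mrc1, Cd163, Fcgr1, Mertk, Cd14, Lgals3, Trem2 and Cx3cr1), the summed CPM had medians of 720, 3756 and 809 in eWAT ND, WT HFD and KO HFD and of 514, 949 and 562 in iWAT. In eWAT, 10 of the 12 markers rose and 2 fell with diet (24.8% and 26.9% of all genes), and 10 fell in KO (10.8%). In iWAT, 8 rose and 1 fell with diet (25.9% and 24.2% of all genes), and none passed for genotype (0%). The C1q sum, in CPM, made up 29.3% ± 2.5 of the marker sum in eWAT ND (n = 4), 33.1% ± 5.6 in WT HFD (n = 5) and 36.8% ± 6.1 in KO HFD (n = 5). In iWAT the shares were 26.2% ± 1.6 (n = 3), 35.1% ± 5.6 (n = 5) and 36.7% ± 10.1 (n = 3). The C1q sum itself ranged over groups from a mean of 142 to a mean of 1280 CPM, so it moved far more than its share of the macrophage markers. By within-group deviations over 25 libraries, among 11412 candidate genes, the genes most like the C1q mean were Folr2 (r = 0.93), Fcgr3 (r = 0.93) and Hexa (r = 0.92).

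The receptors followed the direction of C1q. C3ar1, the receptor for C3a, was at 24.7, 13.4, 12.5 and 12.6 CPM in eWAT ND, at 341, 200, 88.2, 207 and 60.6 CPM in WT HFD, and at 20.2, 9.91, 8.66, 19.4 and 58.8 CPM in KO HFD. Library 5 of KO was nearly at the level of the lowest WT library, and the other 4 KO libraries were within the ND range or below it. The log2 fold change was 3.51 with diet (SE 0.64, 11.4-fold, adjusted p = 0.00126) and -2.94 with genotype (SE 0.57, adjusted p = 0.0114), or -3.64 without KO library 5 (adjusted p = 0.00106). The lowest WT HFD value, 60.6 CPM, was that of the library in the number range of the ND libraries, against an ND mean of 15.8 CPM. C5ar1, the receptor for C5a, was at 12.6 to 24.0 CPM in eWAT ND, at 228, 93.7, 63.8, 115 and 56.0 CPM in WT HFD, and at 16.4, 11.0, 15.9, 23.2 and 36.97 CPM in KO HFD. It rose by 2.55 (SE 0.44, adjusted p = 0.00095) and was lower in KO by a log2 fold change of -2.43 (SE 0.40, adjusted p = 0.011). Again the WT HFD libraries did not overlap with either other group.

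In iWAT C3ar1 was low on ND, at 5.48, 1.44 and 2.94 CPM, and rose to 42.6, 23.6, 18.9, 46.1 and 15.8 CPM in WT on HFD. The diet effect was 3.20 (SE 0.49, adjusted p = 0.000649), and that of C5ar1 was 2.61 (SE 0.50, adjusted p = 0.00212). In iWAT KO HFD C3ar1 stood at 9.82, 10.3 and 11.2 CPM, below every WT HFD library and above every ND library. Of all genes 4.59% were apart and lower than WT HFD, and 17.8% were apart and higher than ND. Its genotype difference was -1.51 (95% interval -2.49 to -0.53, adjusted p = 0.157) and that of C5ar1 -1.22 (95% interval -2.25 to -0.20, adjusted p = 0.225), so neither passed. As a share of the macrophage marker sum, C3ar1 did move between groups. It was 2.04% ± 0.36, 4.40% ± 1.12 and 2.21% ± 0.70 in eWAT ND, WT HFD and KO HFD, and 0.63% ± 0.42, 2.59% ± 0.35 and 1.96% ± 0.22 in iWAT. C5ar1 was at 2.26% to 2.81% in the eWAT groups and the iWAT HFD groups together (mean of each group) and at 0.89% ± 0.47 in iWAT ND. Summed neutrophil markers had medians of 3.48, 36.9 and 11.0 CPM in eWAT ND, WT HFD and KO HFD, and mast cell markers 18.4, 146 and 24.9 CPM. In iWAT the medians were 9.71, 18.0 and 9.10 CPM for neutrophil and 32.8, 30.9 and 28.2 CPM for mast cell markers. The part of these cells in the receptor levels was not tested. The genes most like C3ar1 were Tbxas1 (r = 0.95), P2ry6 (r = 0.93) and Arhgef10l (r = 0.92), and those most like C5ar1 were Tm6sf1 (r = 0.91), Clec4a1 (r = 0.90) and Aebp1 (r = 0.88).

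**Figure D3:**
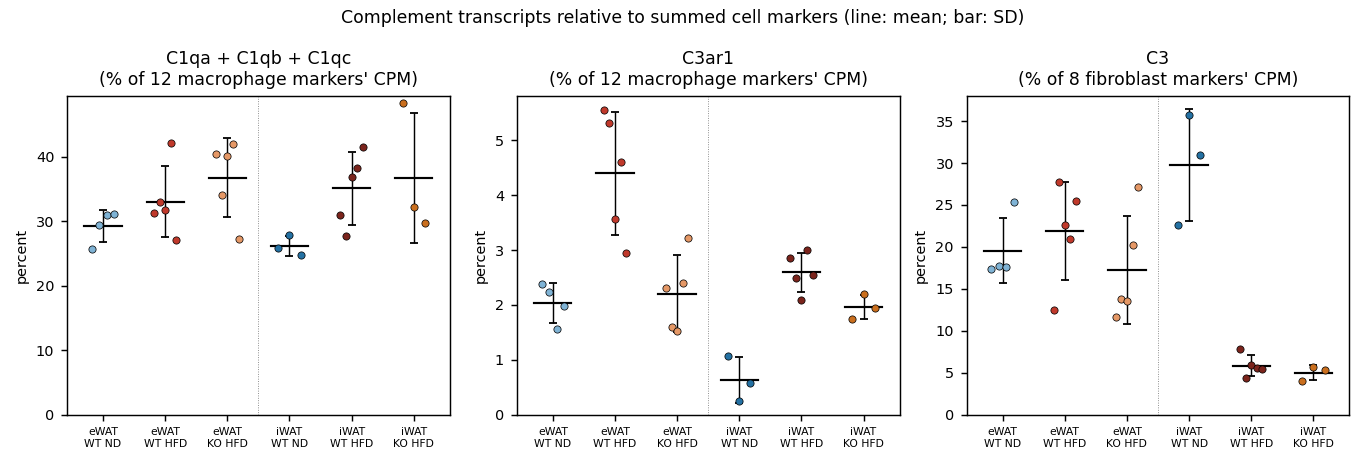
Levels relative to cell markers, in percent (y axis), in the 6 groups (x axis), with 1 point a library, the mean as a line and the SD as a bar. The C1q sum has means of 26.2% to 36.8% of the macrophage markers, C3ar1 peaks in eWAT WT HFD at 4.40%, and C3 falls from 29.8% of the fibroblast markers in iWAT ND to 5.82% in iWAT WT HFD.

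C3, on which all pathways converge, went in opposite directions in the 2 depots. In eWAT it was at 462, 382, 412 and 536 CPM on ND and at 836, 1354, 880, 1372 and 901 CPM in WT on HFD. In iWAT it was at 571, 744 and 547 CPM on ND and at 373, 227, 281, 388 and 229 CPM in WT on HFD. The groups did not overlap in either depot. Of all genes 17.2% were apart and higher with HFD in eWAT, and 24.1% were apart and lower in iWAT. C3 rose by 1.26 in eWAT (SE 0.35, 2.39-fold, adjusted p = 0.0116) and fell by 1.02 in iWAT on the log2 scale (SE 0.22, 2.03-fold, adjusted p = 0.00431). The difference between the depots in the diet effect, tested in one fit of all 25 libraries, was -2.30 (SE 0.44, adjusted p = 0.000927). C3 was the 1 gene of the 9 that passed this test, which 29% of all genes passed. The C1q genes came next, with -1.05 for C1qa (adjusted p = 0.103), -1.08 for C1qc (adjusted p = 0.119) and -1.13 for C1qb (adjusted p = 0.132). With C3 they made 4 genes called by DESeq2, which called 4824 of the 15034 genes in that fit.

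The HFD libraries from the number range of the ND libraries showed the same directions. C3 was at 901 CPM in such a library of eWAT and 229 CPM in one of iWAT, outside the ND range of their depots. Depot was then compared within each condition. On HFD, where lymph node markers were at most 45.2 CPM in iWAT and 20.6 CPM in eWAT of WT mice, C3 was lower in iWAT by a log2 fold change of -1.83 (SE 0.29, adjusted p = 0.000491). On ND, where all 3 iWAT libraries held lymph node markers, it was 0.47 higher in iWAT (SE 0.34, adjusted p = 0.335), not past the threshold although the libraries did not overlap. Of all genes 16.9% were apart and higher in iWAT on ND. All 6 lymph node and B cell markers were lower with HFD in iWAT, alongside C3. The hepatocyte markers, all 5 of which were higher with HFD in both depots, moved with C3 in eWAT and against it in iWAT.

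In KO mice on HFD C3 was at 340, 316, 304, 447 and 1073 CPM in eWAT. Library 5 was within the WT HFD range, 1 library was within the ND range and the other 3 were below it. The genotype difference in eWAT was -1.11 (SE 0.32, adjusted p = 0.0407), and without library 5 it was -1.61 (adjusted p = 0.000914). Library 5 is the only eWAT KO library of the second number range. The WT HFD library of that range was at 901 CPM, below it, so this pair ran opposite to the fitted difference. In iWAT C3 was at 192, 204 and 301 CPM in KO, with a difference of -0.38 to WT (95% interval -0.89 to 0.12, adjusted p = 0.43). Relative to the summed CPM of 8 fibroblast and progenitor markers, C3 was at 19.5% ± 3.9, 21.8% ± 5.9 and 17.3% ± 6.4 in eWAT ND, WT HFD and KO HFD. In iWAT it was at 29.8% ± 6.6, 5.82% ± 1.27 and 5.01% ± 0.85. The marker sum rose with HFD in both depots, to medians of 4883 and 4759 CPM in WT, and all 8 markers passed in each. C3 thus kept pace with these markers in eWAT and not in iWAT. With group means removed, C3 correlated at 0.66 with the macrophage marker list and at 0.55 with the fibroblast list. The C1q genes correlated at 0.76 to 0.82 with the fibroblast list. These correlations therefore do not tell which cells made C3. Among the genes most like C3 were Spc25 (r = 0.83) and Gbp6 (r = 0.82).

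C4b, whose product is cleaved by C1s and binds the target, was the most abundant member on ND and did not pass for diet in either depot. Its eWAT values were 1389, 1073, 1289 and 704 CPM on ND and 843, 1061, 975, 1534 and 1041 CPM in WT on HFD. The log2 fold change was -0.03 in eWAT (95% interval -0.82 to 0.76, adjusted p = 0.956) and 0.24 in iWAT (95% interval -0.25 to 0.72, adjusted p = 0.417). In KO on HFD C4b was at 879, 214, 521, 484 and 1109 CPM in eWAT and at 582, 453 and 666 CPM in iWAT. The genotype difference was -0.77 in eWAT (95% interval -1.51 to -0.02, adjusted p = 0.162) and -0.68 in iWAT (adjusted p = 0.183). Without eWAT KO library 5 the eWAT difference was -1.07 and passed (adjusted p = 0.0382), as it did within the first number range (-1.08, adjusted p = 0.0814) and by DESeq2 (-0.77, adjusted p = 0.0814). Of the 50-base stretches of C4b transcripts, 34.6% also occur in its near copy C4a, which was counted at group means of 1.26 to 2.88 CPM, so reads of this pair could be split or dropped. The genes most like C4b were Serpinb9, F2r and Pwp2 (r = 0.88, 0.87 and 0.87).

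C2, which carries the protease of the classical C3 convertase, moved opposite to C1q in eWAT. It was at 24.3, 23.2, 32.8 and 30.2 CPM in eWAT ND, at 11.8, 9.66, 15.3, 12.03 and 19.7 CPM in WT HFD, and at 28.0, 17.8, 29.6, 40.3 and 10.8 CPM in KO HFD. No WT HFD library reached the ND range, and 3 of 5 KO libraries lay in it or above it. The WT HFD library from the number range of the ND libraries was the highest of its group, at 19.7 CPM. The KO library of that range was the lowest of its group, at 10.8 CPM. Of all genes 18% were apart and lower with diet in eWAT. C2 fell by 1.01 on the log2 scale with diet (SE 0.31, adjusted p = 0.0179) and was 0.88 higher in KO than in WT (SE 0.29, adjusted p = 0.0646). The genotype call was lost in 6 of 14 fits that left out 1 library, with an adjusted p of up to 0.162 (without KO library 4), and in a fit of the WT and KO libraries alone (adjusted p = 0.113). In iWAT the directions were the same, -0.48 with diet (adjusted p = 0.293) and 0.75 with genotype (adjusted p = 0.31), and neither passed. Its within-group correlation with the macrophage marker list was -0.53, while those of the other 8 genes were 0.35 to 0.94. Kantr, Gstt1 and Iqcb1 were the genes most like it (r = 0.82, 0.82 and 0.81).

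Cfb, factor B of the alternative pathway, had the lowest mean level as counted in every group but iWAT ND, where C3ar1 was lower. It was at 3.12 to 5.19 CPM in eWAT ND, 1.42 to 3.66 in WT HFD and 0.88 to 8.57 in KO HFD, the last value from library 5. No comparison passed, with log2 fold changes of -0.45 for diet in eWAT (adjusted p = 0.483), 0.30 for genotype (adjusted p = 0.716) and 0.10 for diet in iWAT (adjusted p = 0.896). In the GENCODE annotation 79.5% of the exon bases of Cfb, and 42.8% of those of C2, are shared on the same strand with the read-through gene Gm20547, which had 0 reads in all 25 libraries. Where reads in shared bases are set aside as ambiguous, Cfb is counted on 579 of 2825 exon bases, which would lower its level beside other genes. Which rule was used is not given in the sources used here, but the counts hold a row of ambiguous reads set apart from all genes. All exon bases of Gm20547 are shared with C2 or Cfb, so its 0 reads show that reads in shared bases were not counted for every overlapping gene. Usp12, Kpna1 and Htra1 were the genes most like Cfb (r = 0.87, 0.86 and 0.86).

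The KO on HFD was then set against WT on ND, the groups at either end of the design. In eWAT none of the 9 genes passed by edgeR (26.5% of all genes passed), 1 had an unadjusted p under 0.05 and 1, C4b, passed by DESeq2. DESeq2 called 4669 of the 14936 genes there. The largest log2 differences were -0.80 for C4b (95% interval -1.58 to -0.01, adjusted p = 0.142) and 0.63 for C1qb (95% interval -0.21 to 1.47, adjusted p = 0.265). In iWAT 2 of the 9 were higher, C3ar1 by 1.68 (SE 0.49, adjusted p = 0.0272) and C5ar1 by 1.39 (SE 0.51, adjusted p = 0.0672), and 1 was lower, C3 by a log2 fold change of -1.40 (SE 0.26, adjusted p = 0.00277). Of all genes 18.5% were higher and 16.1% lower there. The C5ar1 call was lost when ND library 2, ND library 3 or KO library 1 was left out, with an adjusted p of up to 0.206. C3 in iWAT was low on HFD in both genotypes, with every HFD library under the lowest ND library. Of all genes 24.1% were apart and lower than ND in WT HFD, and 19.1% in KO HFD. With the iWAT KO libraries of 17 and 18 weeks left out, a single KO library remained, so that fit cannot repeat the C3ar1 call. The C3ar1 difference in it was 1.59, beside 1.68 with all libraries.

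Depots were compared within each condition. In WT mice on HFD 6 of the 9 genes were lower in iWAT (10.8% of all genes), C3 and the 5 macrophage-made genes, with log2 fold changes from -1.60 for C1qa (SE 0.30, adjusted p = 0.00154) to -2.61 for C3ar1 (SE 0.52, adjusted p = 0.00254). On ND 2 were lower in iWAT (17.5% of all genes), C3ar1 by -2.27 (SE 0.66, adjusted p = 0.0145) and C5ar1 by -2.01 (SE 0.53, adjusted p = 0.0086). C4b, C2 and Cfb passed in neither. In KO mice on HFD none passed by edgeR (3.81% of all genes), 3 had an unadjusted p under 0.05 and 1, C3, passed by DESeq2. DESeq2 called 892 of the 15034 genes there. C3 came nearest, at -1.09 (95% interval -1.80 to -0.39, adjusted p = 0.103), with all iWAT libraries below all eWAT libraries, as for 3.39% of all genes. The genotype effect did not pass for a difference between depots in any of the 9 genes (0.00665% of all genes), and 1 had an unadjusted p under 0.05. The interval of that difference was wide, for C1qb from -0.11 to 2.02 on the log2 scale. An effect that passed in eWAT and not in iWAT is therefore not shown to differ between them by this fit. These calls changed in a fit with the replicate number as a block, which is described below.

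The iWAT genotype comparison depended on the tool. Although none of 14801 genes passed by edgeR, 2468 had an unadjusted p under 0.05, and the lowest adjusted p was 0.108. DESeq2 called 1072 genes, 6 of the 9 among them, all lower in KO: C1qa, C1qb, C1qc, C4b, C3ar1 and C5ar1.

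The rest of the pathway was counted from lists of the known complement genes. Of the classical and lectin genes, C1ra, a protease of the C1 complex, rose in eWAT with diet (0.64, SE 0.16, adjusted p = 0.00789) and fell by 0.68 in KO (SE 0.15, adjusted p = 0.016). C1s1, the other C1 protease, at 271 CPM in eWAT WT HFD, gave -0.19 (adjusted p = 0.379) and -0.27 (adjusted p = 0.303). Of the 7 genes of this list tested in eWAT (13 listed), 1 rose and 1 fell with diet, where 24.8% of all genes rose and 26.9% fell, and 1 fell with genotype (10.8% of all genes). Of the 9 tested in iWAT, 6 rose with diet (25.9% of all genes). The 6 were Masp1, Masp2, Mbl1, Mbl2, Fcna and C4a, and Mbl1 and Mbl2, mannose-binding lectins made in liver, were at 0 in all iWAT ND libraries.

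Of the alternative pathway, Cfd (factor D, also called adipsin, made by adipocytes) stood above all 9 members per unit length, with group means of 619 to 6930 FPKM. It fell from 6207 CPM in eWAT ND to 584 CPM in WT HFD (log2 fold change -3.41, SE 0.64, adjusted p = 0.00147), and stood at 3477 CPM in KO HFD (2.57 above WT, SE 0.60, adjusted p = 0.0182). In iWAT it fell from 5934 to 933 CPM (-2.63, SE 0.48, adjusted p = 0.00161), and in KO it was at 3886 CPM (2.02, SE 0.48, adjusted p = 0.137). In eWAT its direction was that of C2 and opposite to that of C1q. Cfp, properdin, which stabilizes the C3 convertase and is made by myeloid cells, rose with diet in eWAT (1.30, SE 0.20, adjusted p = 0.000573) and was lower in KO (-0.77, SE 0.18, adjusted p = 0.0195).

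Of the terminal pathway genes, 3 of 6 tested rose with diet in eWAT (24.8% of all genes) and 6 of 7 in iWAT (25.9%). Hc, C8a and C9 rose in both depots, together with the hepatocyte markers. C8a, made in liver, was at a mean of 0.027 CPM in eWAT ND and 3.31 CPM in WT HFD. C6 rose in iWAT (2.66, SE 0.58, adjusted p = 0.00418), from 10.1 to 62.5 CPM, and had -0.64 in eWAT (adjusted p = 0.13). C7 was at 103 CPM on ND and 57.1 CPM in WT HFD there (adjusted p = 0.26).

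Of 14 complement inhibitors, 12 were tested in eWAT, where 5 rose and 2 fell with diet (24.8% and 26.9% of all genes) and 2 fell with genotype (10.8%). In iWAT 13 were tested, and 9 rose and 1 fell with diet (25.9% and 24.2% of all genes). Serping1, the C1 inhibitor, rose from 142 to 405 CPM in eWAT (1.51, SE 0.32, adjusted p = 0.003) and was at 181 CPM in KO (-1.16, SE 0.30, adjusted p = 0.026). It also rose in iWAT (1.22, SE 0.31, adjusted p = 0.00923). Cd59a, which blocks the membrane attack complex, rose in both depots, by 1.09 (SE 0.21, adjusted p = 0.0015) and 1.76 (SE 0.24, adjusted p = 0.000339), and had -0.07 with genotype in eWAT (adjusted p = 0.836). C4bp fell in eWAT and rose in iWAT, and its eWAT ND values ran from 0.11 to 100.2 CPM with a median of 2.95 CPM, in the group that holds the library with 7890 CPM of epididymis markers. Clu, clusterin, fell by 2.74 in iWAT (SE 0.25, adjusted p = 6.6e-05), where the lymph node markers also fell.

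Of 7 other complement receptors, 6 were tested in eWAT, and all 6 rose with diet and were lower in KO (24.8% and 10.8% of all genes). Itgam and Itgax, which pair with Itgb2 to bind cleaved C3, rose by 2.23 and 3.29 and were lower by -1.71 and -2.58 (adjusted p = 0.000895, 0.0044, 0.0124 and 0.0277, SE 0.38, 0.76, 0.34 and 0.67). Vsig4, a receptor of tissue macrophages for cleaved C3, rose by 2.82 (SE 0.79, adjusted p = 0.0123). Cd93, found also on endothelium, changed least, by 0.52 (adjusted p = 0.0575) and -0.62 (adjusted p = 0.0545). In iWAT 3 of the 7 rose and 1 fell (25.9% and 24.2% of all genes), and the 1 that fell was Cr2 (76.1 to 1.60 CPM), the receptor of B cells and follicular dendritic cells, beside the lymph node markers.

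**Figure D4:**
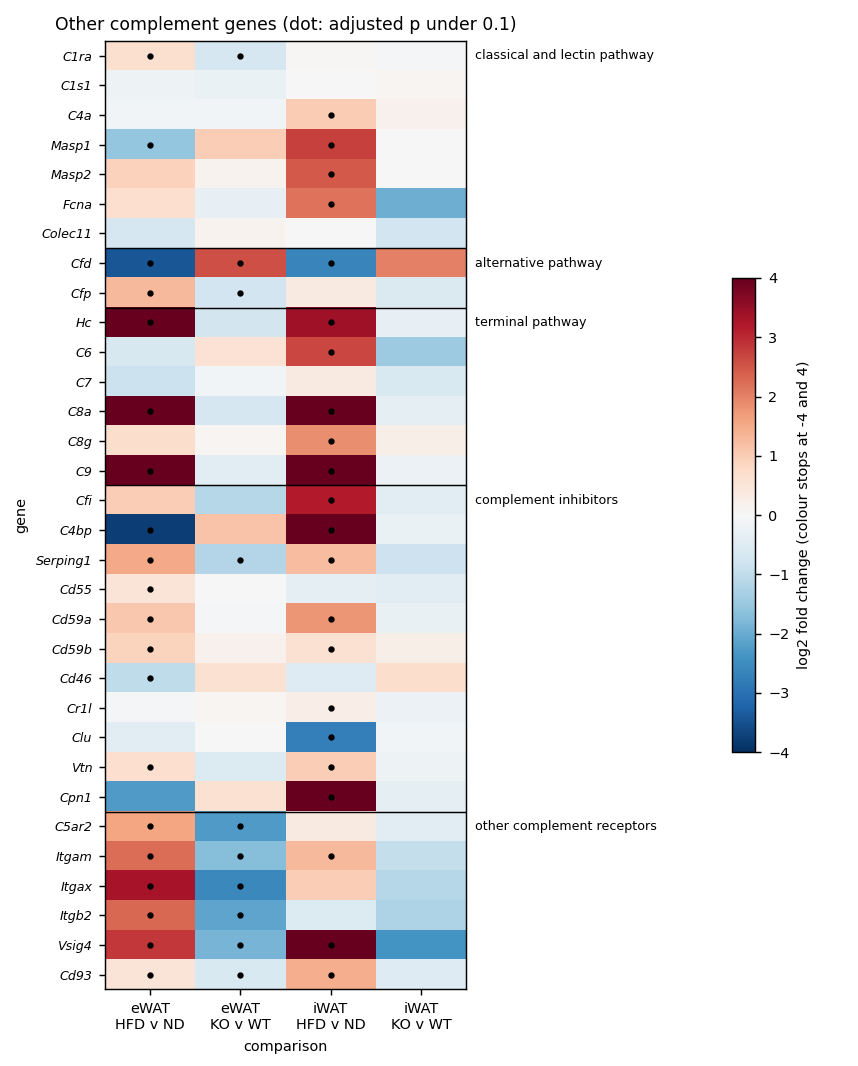
Log2 fold changes (colour, stopped at -4 and 4) of 32 other complement genes tested in both depots, by pathway list (rows) for diet and genotype in each depot (columns), with a dot at an adjusted p under 0.1 by edgeR. Cfd is blue for diet and red for genotype, the receptors show the opposite colours in eWAT, and the iWAT genotype column has no dot.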

How the data were processed

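Gene counts of 25 mouse fat libraries were used as deposited. According to the study's methods, reads were trimmed with cutadapt, reads under the length minimum and contaminants were removed, and the rest were aligned with STAR to GRCm38 with GENCODE annotation. The counting program and its strand setting are not given in the sources used here. The authors deposited raw counts and FPKM values (counts scaled by gene length and depth), the latter used only for levels between genes. Rows naming no gene were left out of library sizes: no-feature reads were 6.41% to 11.9% and ambiguous reads 1.52% to 2.07% of all reads assigned to a row.

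Tests used edgeR 4.0.16 (quasi-likelihood, TMM) in R 4.3.3, with genes at a mean of at least 1 CPM, Benjamini-Hochberg adjustment over all genes tested and a threshold of 0.1. Within a depot all 3 groups shared one fit (14 eWAT or 11 iWAT libraries); depots and interactions were tested over all 25. Levels in CPM are on one TMM scale. The script was tested on simulated counts. DESeq2 1.42.0, other filters, size factors, a number-range term, a replicate block and each library left out were tried. Members and lists were chosen with earlier results of these data known. All 9 members are named, other genes by list; some genes that this rule would name are not reported here. Likeness is Pearson's r of log2 CPM (prior count 2) after group means were removed, over genes at 5 CPM or more. Animals are not identified in the labels, so p-values measure the spread between libraries. No 2 libraries of the same group agreed within sampling noise.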

Additional observations from a re-analysis of the deposited data

Results flagged for a closer look

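Of 36 gene and group pairs tested, 3 held a library far from the rest of its group, where chance flags about 1 in 20. In eWAT KO HFD, library 5 was at 1073 CPM for C3, with the next library at 447 CPM, and at 58.8 CPM for C3ar1, with the next at 20.2 CPM. This library had 1822 CPM of macrophage markers, where the other 4 had 571 to 880 CPM, and it had 1086 CPM of epididymis markers. In eWAT ND, library 1 was at 24.7 CPM for C3ar1, with the next at 13.4 CPM, and it had the highest macrophage marker sum of its group (1037 CPM). The diet effect on C3 differed between depots by a log2 value of -2.30 (iWAT minus eWAT, edgeR interaction, adjusted p = 0.000927).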

How the results depend on the processing

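The numbers of members called for diet in either depot, for genotype in eWAT, for iWAT KO HFD against ND and for depot in WT HFD stayed within 1.5 times under every setting tried. The filter on low counts changed no result when dropped. Of 99 gene results, 86 kept direction and call by DESeq2 and 13 passed by DESeq2 and not by edgeR. The cause of the changes below was not tested. Apart from the DESeq2 test, the shares of all genes called under these settings were not counted.

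For eWAT KO HFD against ND, 1 member passed instead of 0 by DESeq2 (C4b), with only the groups compared (C1qa) and without the 2 libraries of most epididymis markers (C4b), the last chosen after seeing the data. For iWAT genotype, 6 passed by DESeq2, 4 within the first number range, and 1 (C2, higher in KO) with the KO library of 16 weeks only, also chosen after seeing the data. For the depot difference of the diet effect, 3 passed with at least 1 CPM in every library (which dropped Cfb), 2 with DESeq2 size factors and 4 by DESeq2. For depot in KO HFD, 1 passed by DESeq2 and 1 with the number range as a term.

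In no comparison did every same-numbered pair of libraries correlate above 0.1 in its deviations from the group means (the lowest pair was at 0.037 for depot in WT ND and 0.012 for iWAT diet, and below zero elsewhere), so the numbers are not taken to pair samples. Between depots the medians of same-numbered pairs were 0.133 in WT ND, 0.102 in WT HFD and 0.041 in KO HFD. Those of other pairs were -0.048, -0.052 and -0.0041. With so few pairs, shared mice are not excluded. With the replicate number as a block, 6 members passed for depot in WT ND and 4 for the depot difference of the diet effect. For that of the genotype effect 6 passed. The shares of all genes called in the blocked fits were not counted, so these numbers cannot be set against them. C2 did not pass for eWAT genotype under the block (adjusted p = 0.11). Under the block the sign turned for Cfb in eWAT genotype (-0.021), C3 in eWAT KO HFD against ND (-0.17), Cfb in iWAT diet (-0.25), and C4b (0.28) and Cfb (0.34) for depot in KO HFD.

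Other turns of sign were all in results that did not pass. With the number range as a term they were C4b (0.45) and Cfb (0.55) in eWAT diet, and Cfb in eWAT (0.58) and iWAT (0.29) KO HFD against ND; C5ar1 in the latter no longer passed (adjusted p = 0.272). Without the 2 epididymis libraries they were Cfb in eWAT genotype (-0.34), and C3 (-0.42), C3ar1 (-0.19) and C5ar1 (-0.35) in eWAT KO HFD against ND. Cfb was at -0.31 in eWAT genotype within the first number range, and C5ar1 at -0.016 for the depot difference of the diet effect with at least 1 CPM in every library.

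With each library left out in turn, 1712 of 1800 gene results kept direction and call. The number of members called ran from 0 to 1 for eWAT KO HFD against ND (1, C4b, without KO 5), from 0 to 4 for iWAT genotype (4 without KO 3, and 1 without WT HFD 5), from 0 to 1 for depot in KO HFD (1, C3, without eWAT KO 1, 2 or 3 or iWAT KO 3), from 1 to 4 for the depot difference of the diet effect (4 without eWAT WT HFD 3, eWAT WT HFD 5 or iWAT WT HFD 4) and from 0 to 1 for that of the genotype effect (1, C3, without eWAT KO 5). Log2 values that crossed zero ran as follows. In eWAT diet C4b ran from -0.20 to 0.080, and in eWAT genotype Cfb from -0.34 to 0.54. In eWAT KO HFD against ND the ranges were -0.36 to 0.056 for C2, -0.36 to 0.28 for C3, -0.79 to 0.10 for Cfb, -0.13 to 0.84 for C3ar1 and -0.20 to 0.28 for C5ar1. In iWAT Cfb ran from -0.18 to 0.26 for diet, from -1.46 to 0.14 for genotype and from -1.39 to 0.22 for KO HFD against ND, where C2 ran from -0.28 to 0.56. Between depots Cfb ran from -0.32 to 0.10 in WT ND and from -1.40 to 0.42 in KO HFD, where C4b ran from -0.40 to 0.12. The depot difference of the diet effect ran from -0.70 to 0.24 for C3ar1 and from -0.26 to 0.49 for C5ar1, and that of the genotype effect from -0.65 to 0.19 for C2, from -0.12 to 0.42 for C4b and from -1.74 to 0.071 for Cfb.

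Depth limits Cfb most, at 0.88 to 8.57 CPM, and exon bases shared with another gene may have lowered its counts. Group sizes of 3 to 5, whole tissue and the near coincidence of diet with number range limit the rest.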
